A study of Mus musculus with 6 samples.

Results

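The class I antigen presentation pathway was followed through 10 genes of the deposited count table, which lists 54532 genes. They were taken by symbol, and each symbol named a single row. They are the class I heavy chain genes H2-D1 and H2-K1, the light chain gene B2m, the peptide transporter genes Tap1 and Tap2, the tapasin gene Tapbp, the transactivator gene Nlrc5, and the immunoproteasome genes Psmb8, Psmb9 and Psmb10. RNA came from cultured primary mouse aortic endothelial cells (MAEC), untreated, in 3 female Oct4 KO and 3 male Oct4 KO libraries. All 6 libraries carry the same genotype label, a knockout of Oct4 (gene Pou5f1) made specific to endothelial cells, so the comparison is between the sexes within that genotype, and wild-type cells were not analysed here. The promoter that drove the deletion, the mouse strain, the age and the number of animals behind each library are not given in the sources used here. The p-values therefore measure the spread between these libraries, which may be technical.

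Class I molecules display peptides of a cell's own proteins to cytotoxic T cells. The proteasome cuts proteins into peptides, the transporter made of TAP1 and TAP2 carries them into the endoplasmic reticulum, and tapasin helps load them onto a heavy chain paired with beta-2 microglobulin. NLRC5 switches on the genes of this route, and interferons raise most of them. In the immunoproteasome the products of Psmb8, Psmb9 and Psmb10 take the places of the constitutive catalytic subunits encoded by Psmb5, Psmb6 and Psmb7.

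Library totals ran from 19299742 to 23064738 counts. Log2 CPM (counts relative to the effective library size) correlated at 0.986 to 0.992 between libraries of a sex and at 0.726 to 0.764 between the sexes, across 10812 genes, which are not independent replicates. Pou5f1 had 0 counts in all 6 libraries, so it cannot check the genotype label without wild-type cells. Xist counts were 28171, 31900 and 21282 in female cells against 8, 0 and 5 in male cells, and those of Ddx3y, on the Y chromosome, were 0 in each female library against 1043, 731 and 1304 in male ones. The endothelial label was poorly matched by markers. Of 12 endothelial marker genes 10 were under 1 CPM in all 6 libraries, Emcn, Cldn5 and Robo4 were at 0 in all, and the list summed to 4.87 to 7.003 CPM in female and 4.79 to 5.88 CPM in male libraries. The 10 fibroblast marker genes summed to 15280 to 17180 CPM in female and 6636 to 7206 CPM in male libraries. In female cells 8 of them were called higher, where 30.9% of all genes tested were. Col1a2 was called lower, at 1184 ± 23.8 CPM in female and 1615 ± 94.0 CPM in male cells, and Col1a1 was not called. The 8 smooth muscle markers summed to 60.9 to 65.2 CPM in female and 154.8 to 168.2 CPM in male libraries.

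Female cells carried more RNA of most of the 10 genes, which were chosen with earlier results of these data known. All 10 genes passed the low-count filter. In edgeR's quasi-likelihood test, at an adjusted p under 0.05, 8 were higher in female cells (H2-D1, H2-K1, B2m, Tap1, Tapbp, Nlrc5, Psmb8 and Psmb9), where 30.9% of all 14814 genes tested were higher. Tap2 was lower, where 29.8% of all genes were lower, and Psmb10 was not called. The 2 sexes did not overlap in CPM for 9 of the 10 genes, against 67.1% of all genes. The median log2 fold change of the 10 genes, female over male, was 1.57, and that of all genes was -0.01. A total of 6 of them were called at least 2-fold higher in female cells, a size reached by 13.7% of all genes. Fewer cells of a type and less RNA per cell cannot be told apart in bulk samples. The plot of CPM by library shows each value.

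**Figure D1:**
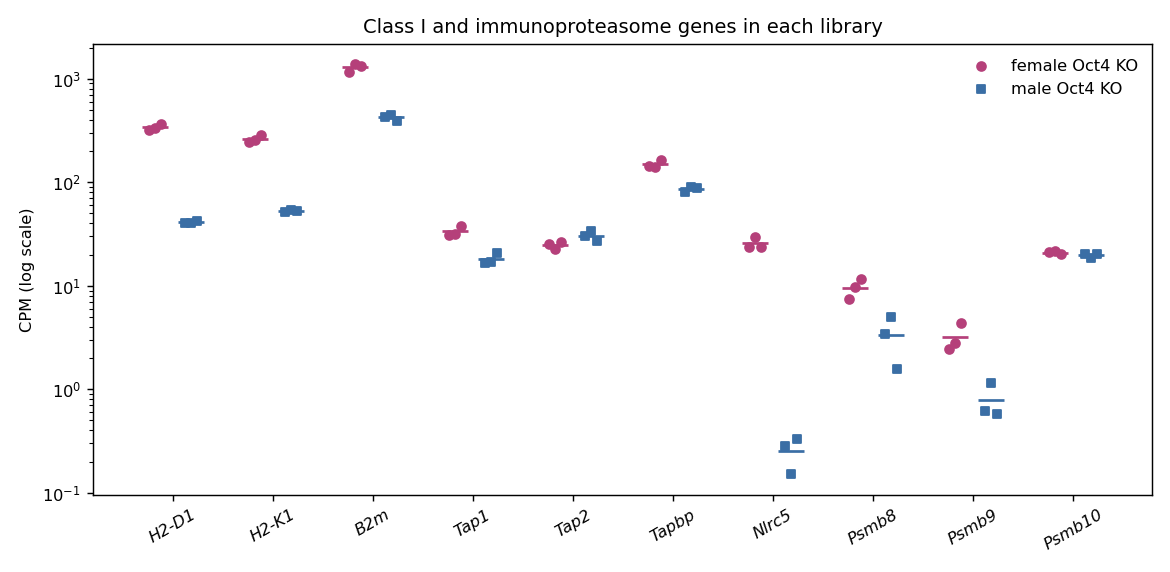
CPM of the 10 genes in each library on a log axis, female Oct4 KO (circles) left of male Oct4 KO (squares), with a bar at each mean (n = 3 per sex). The female points lie above the male points for 8 genes, below them for Tap2 and among them for Psmb10.

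The classical heavy chains had the largest fold changes of the 10 genes after Nlrc5. H2-D1 (ENSMUSG00000073411, mm10 chr17:35262730-35267499) stood at 319.1, 337.4 and 364 CPM in the female libraries, against 40.2, 40.3 and 42.4 CPM in the male libraries. The female libraries were high and the male libraries low, far apart. Its log2 fold change was 3.05 ± 0.09 (SE; edgeR adjusted p = 1.43e-14). H2-K1 (ENSMUSG00000061232, chr17:33996017-34000333), also a classical heavy chain gene, stood at 243.5, 258.6 and 287.2 CPM in female libraries, against 51.6, 54.4 and 52.4 CPM in male libraries, again with no overlap. Its log2 fold change was 2.32 ± 0.09 (adjusted p = 4.56e-13). B2m (ENSMUSG00000060802, chr2:122147686-122153083), whose product is the light chain shared by all class I molecules, stood at 1155, 1373 and 1340.0 CPM in female and 431.5, 449.4 and 391.7 CPM in male libraries. That was a log2 fold change of 1.60 ± 0.09 (adjusted p = 7.12e-11), so all 3 chains were higher in every female library than in any male library.

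Reads of H2 genes can fall on near-identical paralogs. Of the 100-base windows of the longest H2-D1 transcript, 4.64% also occur in transcripts of other genes, and for H2-K1 the share is 0%. With windows of 50 bases the shares are 14.3% and 8.11%. The sources used here do not say how the authors treated such reads. H2 genes also vary in sequence between mouse strains, and whether differences from the mm10 sequence altered the counts of H2 genes was not tested. The heavy chain and class I-like genes were therefore also summed to a single feature of 21 genes. The sum was 839.5 ± 54.4 CPM in female and 288.7 ± 10.4 CPM in male cells (SD, n = 3 each), a log2 fold change of 1.54 ± 0.08 (edgeR adjusted p = 3.12e-11), which is less than that of H2-D1 or H2-K1 alone.

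The make-up of these reads differed as well. H2-D1 took 40.5% ± 0.218 of the summed heavy chain reads in female and 14.2% ± 0.919 in male cells, and H2-K1 took 31.3% ± 0.601 and 18.3% ± 0.499 (female, then male; SD, n = 3 each). H2-T23, which encodes the nonclassical molecule Qa-1, took 5.19% ± 0.108 in female and 26.9% ± 0.0113 in male cells. Its level was 43.6 ± 3.74 CPM in female and 77.7 ± 2.77 CPM in male cells, and it fell by 0.83 on the log2 scale (SE 0.09, edgeR adjusted p = 4.86e-07). H2-T22 missed the threshold (adjusted p = 0.901), with 38.5 ± 5.21 CPM in female and 38.0 ± 1.68 CPM in male cells. The stacked bars of heavy chain reads show H2-D1 and H2-K1 as the bulk of the female reads.

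**Figure D2:**
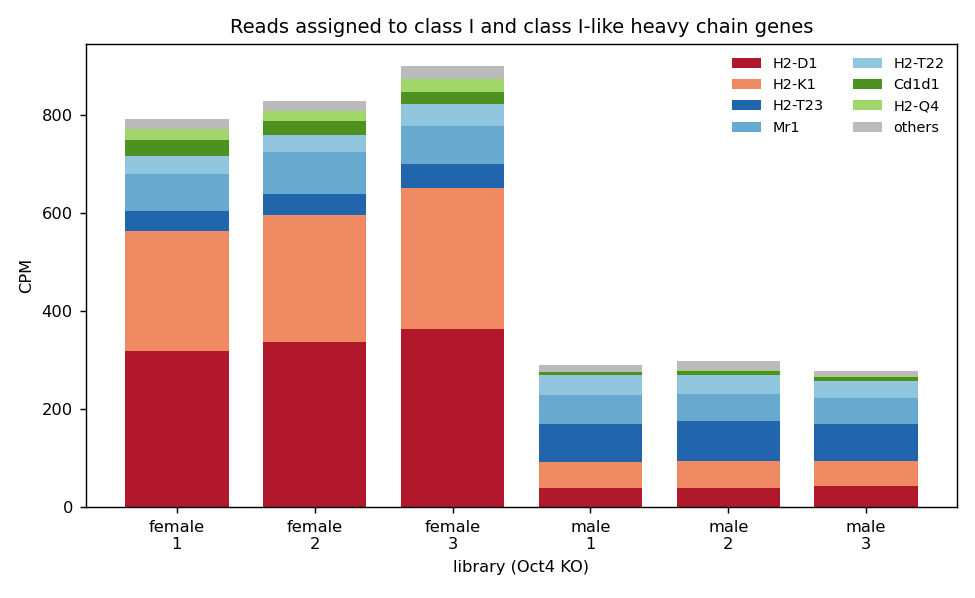
CPM assigned to the class I and class I-like heavy chain genes in each library, stacked by gene, with female libraries left of male libraries. The female bars reach 792 to 899 CPM and the male bars 278.2 to 298.9 CPM.

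Of the 20 heavy chain and class I-like genes listed beside H2-D1 and H2-K1, 11 passed the filter. In female cells 6 were higher (H2-Q4, H2-Q6, H2-Q7, H2-T24, Cd1d1 and Mr1), where 30.9% of all genes were. H2-T23 was lower, where 29.8% of all genes were, and 4 were not called. In either direction 63.6% of the 11 were called, near the 60.7% of all genes. The median log2 fold change of the 11 was 0.50, also with genes at 0 counts set to their bound. H2-Q4, a Qa-region heavy chain, stood at 23.9 ± 2.77 CPM in female and 0.816 ± 0.320 CPM in male cells (log2 4.87 ± 0.23). H2-Q7, of the same region, had 224 counts in the female libraries together and 3 in the male, a ratio of 81.2 with a 95% counting interval of 27.4 to 397. H2-Q6 had 54 counts in the female libraries and 0 in the male, at least 6.51-fold higher against a floor of 3 counts per library. Cd1d1, which presents lipids to natural killer T cells, averaged 28.5 ± 3.33 CPM in female libraries, against 7.64 ± 0.736 CPM in male libraries. Nonclassical genes thus moved in both directions.

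The start regions of 4 of the genes are printed. Those of H2-D1, H2-K1 and B2m show letters in common, of which Tap1 holds only TGACG and CCAAT. The windows run from 250 bases before to 50 after the annotated start, from RefSeq on GRCm38.p6, and were matched for 8 of the 10 genes. Where a gene has several windows, the one nearest its start in the count table is shown. The annotated start still lay 364 bases from that start for H2-D1, 474 for Psmb8, 434 for Psmb9 and 3579 for Tapbp. Capitals mark matches on either strand to the interferon response element ISRE (GAAA, any 2 bases, GAAA), its core AANNGAAA, the NF-kB consensus, the CCAAT box, TGACG (part of the cyclic AMP response element) and the STAT motif GAS (TTCNNNGAA).
H2-D1, chr17:35262844-35263143, plus strand: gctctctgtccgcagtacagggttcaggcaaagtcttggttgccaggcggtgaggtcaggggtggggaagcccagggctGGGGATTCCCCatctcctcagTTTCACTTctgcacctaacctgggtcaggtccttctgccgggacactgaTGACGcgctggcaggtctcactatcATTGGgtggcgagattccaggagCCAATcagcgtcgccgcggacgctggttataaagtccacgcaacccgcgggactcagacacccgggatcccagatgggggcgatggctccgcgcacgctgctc
H2-K1, chr17:34000284-34000583, minus strand: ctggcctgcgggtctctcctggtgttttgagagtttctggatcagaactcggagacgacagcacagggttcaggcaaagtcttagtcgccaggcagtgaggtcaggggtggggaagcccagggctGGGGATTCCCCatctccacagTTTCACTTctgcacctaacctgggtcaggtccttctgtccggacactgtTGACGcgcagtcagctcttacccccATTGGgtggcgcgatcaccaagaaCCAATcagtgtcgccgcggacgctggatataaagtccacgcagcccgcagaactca
B2m, chr2:122147437-122147736, plus strand: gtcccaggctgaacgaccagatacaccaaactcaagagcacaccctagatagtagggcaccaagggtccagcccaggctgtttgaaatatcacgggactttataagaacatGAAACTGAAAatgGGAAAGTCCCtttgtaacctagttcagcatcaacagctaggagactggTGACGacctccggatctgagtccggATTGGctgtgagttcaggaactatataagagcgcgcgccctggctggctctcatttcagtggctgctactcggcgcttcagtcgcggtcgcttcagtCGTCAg
Tap1, chr17:34187306-34187605, plus strand: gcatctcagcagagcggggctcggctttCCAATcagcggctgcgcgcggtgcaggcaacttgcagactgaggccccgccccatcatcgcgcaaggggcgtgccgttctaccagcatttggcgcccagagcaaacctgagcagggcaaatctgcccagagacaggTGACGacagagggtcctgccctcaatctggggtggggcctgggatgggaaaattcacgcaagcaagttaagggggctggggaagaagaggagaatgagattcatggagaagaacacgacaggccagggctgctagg

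H2-D1, H2-K1 and B2m each hold an NF-kB match, an ISRE core match, TGACG and CCAAT, in that order toward the start in H2-D1 and H2-K1. In H2-D1 they begin at -171, -150, -101 and -76, and in H2-K1 at -125, -104, -55 and -30, counted from the annotated start, with further CCAAT matches at -53 and -6. The NF-kB match occurs in overlapping registers in both. B2m holds the full ISRE at -139, which contains the core at -137, then NF-kB at -126, TGACG at -78 and CCAAT at -53. Among 32817 RefSeq promoter windows, 3.43% hold ISRE, 23.9% its core, 8.46% NF-kB, 37.4% CCAAT, 20.8% TGACG and 8.29% GAS. Tap1 holds TGACG and CCAAT only, at -86 and -222. The Tap1 and Psmb9 windows lie on opposite strands and share 275 bases, so the same letters are the Psmb9 matches. Psmb8 holds a GAS match only, at -97, Tapbp holds only CCAAT, at -248 and -165, and Psmb10 holds no match. These matches describe letters and not bound sites.

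Among the genes of peptide transport and loading, Tap1 and Tapbp were higher and Tap2 was not. Tap1 (ENSMUSG00000037321, chr17:34187553-34197225) stood at 31.2, 31.6 and 38.2 CPM in female and 16.5, 16.8 and 20.8 CPM in male libraries (log2 0.90 ± 0.13, edgeR adjusted p = 1.29e-05). Tapbp (ENSMUSG00000024308, chr17:33915899-33929288), whose product bridges the transporter and the empty class I molecule, stood at 142.7, 141.0 and 163 CPM in female and 80.4, 90.0 and 88.2 CPM in male libraries (log2 0.79 ± 0.09, adjusted p = 5.32e-07). Neither gene overlapped between the sexes. Of the 100-base windows of the Tapbp transcript 14% recur in other genes, and Tapbp overlaps Zbtb22 on the same strand over 3421 bases, so its level is uncertain.

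Tap2 (ENSMUSG00000024339, chr17:34203527-34216321) encodes the partner of TAP1, and neither works without the other. It stood at 25.4, 22.7 and 26.6 CPM in female libraries, against 29.9, 33.5 and 27.2 CPM in male libraries, so that the highest female library lay just under the lowest male library. It fell by 0.28 on the log2 scale (SE 0.12, edgeR adjusted p = 0.0481). That call was lost under 10 of 14 alternatives, with adjusted p from 0.00753 to 0.188 over all 14. Female minus male, the log2 ratio of Tap1 to Tap2 per length differed by 1.18. It was -0.10 ± 0.12 in female and -1.28 ± 0.32 in male cells (SD, n = 3 each), and no female library overlapped a male library. The two-sided exact permutation p was 0.1, the smallest that 3 against 3 allows, and 0.125 after adjustment over the 5 ratios computed.

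Beside these, 9 genes of chaperones and trimming peptidases were listed, and all were tested. In female cells 4 were higher and 4 were lower, where 30.9% and 29.8% of all genes were. Tapbpl was not called, and the median log2 fold change of the 9 was 0.22. With the length and GC offsets 3 were higher, Tapbpl among them (log2 0.63, edgeR adjusted p = 0.00607), and 3 were lower, with a median of 0.01. The peptide-trimming enzymes were higher. Lnpep, an endosomal aminopeptidase, stood at 213 ± 24.5 CPM in female and 107 ± 3.48 CPM in male cells (log2 1.00 ± 0.09, and 0.33 with the offsets). Erap1, which trims peptides in the endoplasmic reticulum, stood at 30.8 ± 2.03 CPM in female and 17.3 ± 1.52 CPM in male cells (log2 0.84 ± 0.12). Chaperones of the endoplasmic reticulum went both ways. Hspa5 was lower, at 897 ± 51.7 and 1339 ± 50.6 CPM, and so was Pdia3, at 1010 ± 18.4 and 1458 ± 94.1 CPM (female, then male). Canx was higher, at 630.3 ± 9.79 CPM in female and 535.5 ± 34.7 CPM in male cells (log2 0.24 ± 0.08, edgeR adjusted p = 0.0123), a call lost with the offsets.

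Nlrc5 had the largest fold change of the 10 genes. Nlrc5 (ENSMUSG00000074151, chr8:94434356-94527272) had 487, 582 and 467 counts in the female libraries, against 6, 3 and 8 counts in the male libraries. In CPM these were 23.5, 29.8 and 23.7 in female and 0.285, 0.151 and 0.329 in male libraries, so that the male levels lay near the floor of 0.123 to 0.151 CPM that 3 counts give. The log2 fold change was 6.59 ± 0.25 (edgeR adjusted p = 5.87e-13). The counting error is wider than that SE. With 1536 counts in all female and 17 in all male libraries, the ratio of the summed levels was 98.3, with a 95% counting interval of 61.2 to 169. No 50-base window of its transcript recurs in another gene.

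Other factors that act on class I promoters differed less. Of 11 listed factors 2 were higher in female cells, Nfkb1 and Creb1, and 3 were lower, where 30.9% and 29.8% of all genes were. The other 6 were not called, and the median log2 fold change of the 11 was 0.09. With offsets for gene length and GC content 0 of the 11 were higher and 1 was lower. Nfkb1, a subunit of NF-kB, averaged 141 ± 7.95 CPM in female and 91.1 ± 8.17 CPM in male cells (log2 0.63 ± 0.09, edgeR adjusted p = 7.78e-06). Nfyb, a subunit of the CCAAT-binding factor NF-Y, was lower (log2 -0.46 ± 0.11, adjusted p = 0.00169). Irf1, a direct activator of class I and Tap1 promoters, missed the threshold (log2 0.19 ± 0.13, adjusted p = 0.206), with means of 24.9 ± 2.54 CPM in female and 21.8 ± 2.65 CPM in male cells. Rfx5, which binds these promoters together with NLRC5, missed it as well (log2 -0.18 ± 0.15, adjusted p = 0.298).

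Genes of interferon signalling moved in both directions, more of them up. Of 12 tested 7 were higher and 3 lower in female cells, where 30.9% and 29.8% of all genes were. Irf7 had the largest fold change of the list, at 43.05 ± 11.0 CPM in female and 4.89 ± 2.96 CPM in male cells (log2 3.15 ± 0.28, edgeR adjusted p = 4.23e-08). The chains of the interferon gamma receptor went opposite ways. Ifngr2 stood at 424 ± 2.99 CPM in female and 150.1 ± 6.23 CPM in male cells (adjusted p = 2.36e-11), and Ifngr1 at 72.5 ± 5.91 CPM in female and 162 ± 8.30 CPM in male cells (log2 -1.16 ± 0.09, edgeR adjusted p = 4.10e-09). Stat2 and Irf9, factors that carry interferon signals to the nucleus, had log2 fold changes of 1.74 ± 0.09 and 1.71 ± 0.10. Jak2 fell by 1.13 on the log2 scale (SE 0.08). Ifnb1 and Ifng, the ligand genes listed, had 0 counts in all 6 libraries.

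**Figure D3:**
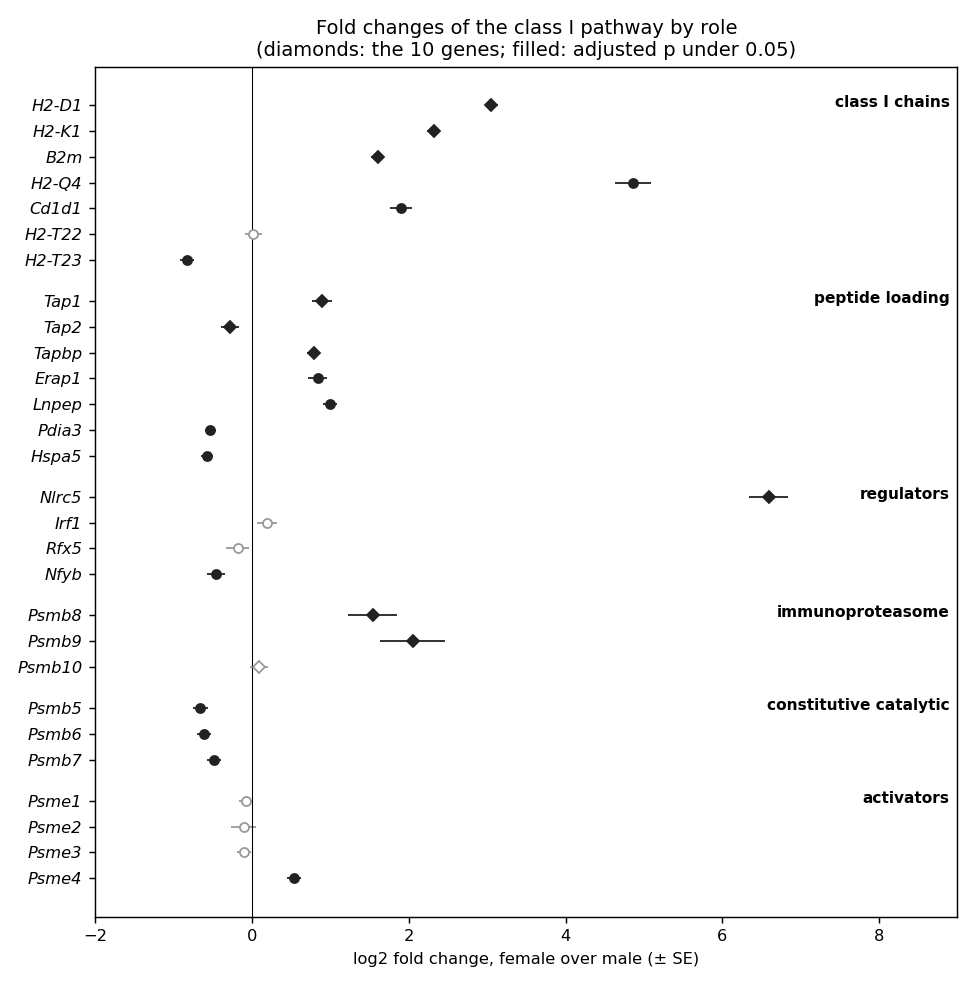
Log2 fold change, female over male, with its SE for the 10 genes (diamonds) and other genes of the pathway (circles), grouped by role. Filled symbols passed an edgeR adjusted p under 0.05. H2-Q6 and H2-Q7, at or near 0 counts in male cells, are not drawn. Among the genes drawn Nlrc5 at 6.59 and H2-Q4 at 4.87 lie farthest to the right, and the constitutive catalytic subunits lie left of 0.

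The immunoproteasome genes did not move as a group. Psmb8 (ENSMUSG00000024338, chr17:34197721-34201454), the counterpart of Psmb5, stood at 7.44, 9.68 and 11.7 CPM in female and 3.41, 5.04 and 1.56 CPM in male libraries (log2 1.54 ± 0.31, edgeR adjusted p = 0.000355). Psmb9 (ENSMUSG00000096727, chr17:34181988-34187764), the counterpart of Psmb6, had 51, 55 and 87 counts in female and 13, 23 and 14 counts in male libraries. That gave 2.46, 2.82 and 4.41 CPM in female and 0.617, 1.16 and 0.576 CPM in male libraries (log2 2.05 ± 0.41, adjusted p = 0.000384). For both genes the lowest female library was above the highest male library, at low counts. Psmb9 and Tap1 overlap on opposite strands over 212 bases, and the sources used here do not say whether the counting used strand.

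Psmb10 (ENSMUSG00000031897, chr8:105935735-105938444), the counterpart of Psmb7, stood at 21.3, 21.5 and 20.1 CPM in female and 20.2, 18.7 and 20.3 CPM in male libraries. The sexes overlapped, and the log2 fold change was 0.09 ± 0.12 (edgeR adjusted p = 0.546). With offsets for gene length and GC content it was 0.495 and called (adjusted p = 0.00253). Across genes averaging 5 CPM or more, fold changes followed gene length. The median log2 fold change was -0.40 in the shortest quintile, which holds B2m and Psmb10, and 0.39 in the longest, which holds Nlrc5. The part of length in single results was not tested beyond these offsets.

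The constitutive catalytic genes went the other way. Psmb5 stood at 60.6 ± 6.86 CPM in female and 95.6 ± 4.99 CPM in male cells (log2 -0.66 ± 0.09), Psmb6 at 71.8 ± 6.86 and 109.5 ± 6.50 CPM (log2 -0.61 ± 0.09), and Psmb7 at 44.4 ± 3.93 and 62.1 ± 1.40 CPM (log2 -0.49 ± 0.09, largest edgeR adjusted p of the 3 = 0.0002). With the length and GC offsets Psmb6 and Psmb7 were still called lower, and Psmb5 was not (log2 -0.16, adjusted p = 0.0885). Of 11 other core subunits 9 were lower in female cells, where 29.8% of all genes tested were lower, and 2 were not called. Those lower were led by Psma7 and Psmb1 (log2 -0.62 ± 0.08 and -0.70 ± 0.09). All 5 assembly factors were lower, among them Pomp, the chaperone that matures the core, at 61.8 ± 4.75 and 91.7 ± 0.941 CPM. With the offsets 7 of these 11 core subunits and 3 of the assembly factors were lower, and 1 of the core subunits was higher. Psme1 and Psme2, which form the interferon-inducible activator PA28, were not called, at 81.1 ± 0.254 and 31.1 ± 3.66 CPM in female and 85.5 ± 11.6 and 33.5 ± 9.60 CPM in male cells. Psme4, of another activator, was higher (log2 0.53 ± 0.09), but not with the offsets (log2 0.10, adjusted p = 0.261).

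The balance between paired subunits can be read within a library, where scaling between libraries plays no part. Such a share does not remove the trend of fold changes with gene length. Psmb8 and Psmb5 are 2736 and 899 bases long, Psmb9 and Psmb6 3659 and 1872, and Psmb10 and Psmb7 1705 and 3421. The part of that trend in these shares was not tested. Per length, Psmb8 made up 3.61, 5.69 and 5.69% of the summed Psmb8 and Psmb5 reads in female libraries, against 1.11, 1.70 and 0.565% in male libraries. Psmb9 made up 1.70, 2.19 and 2.81% of Psmb9 and Psmb6 in female libraries, against 0.271, 0.539 and 0.285% in male libraries. Psmb10 made up 50.5, 50.4 and 45.2% of Psmb10 and Psmb7 in female libraries, against 38.8, 38.0 and 39.9% in male libraries. None of the 3 shares overlapped between the sexes, and each had a two-sided exact permutation p of 0.1, the smallest possible here (0.125 adjusted over the 5 ratios). The share of Psmb10 differed by 9.81 percentage points with Psmb10 itself not called. Psmb5 shares 24.9% of its 100-base windows with other genes, so the first share is uncertain.

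**Figure D4:**
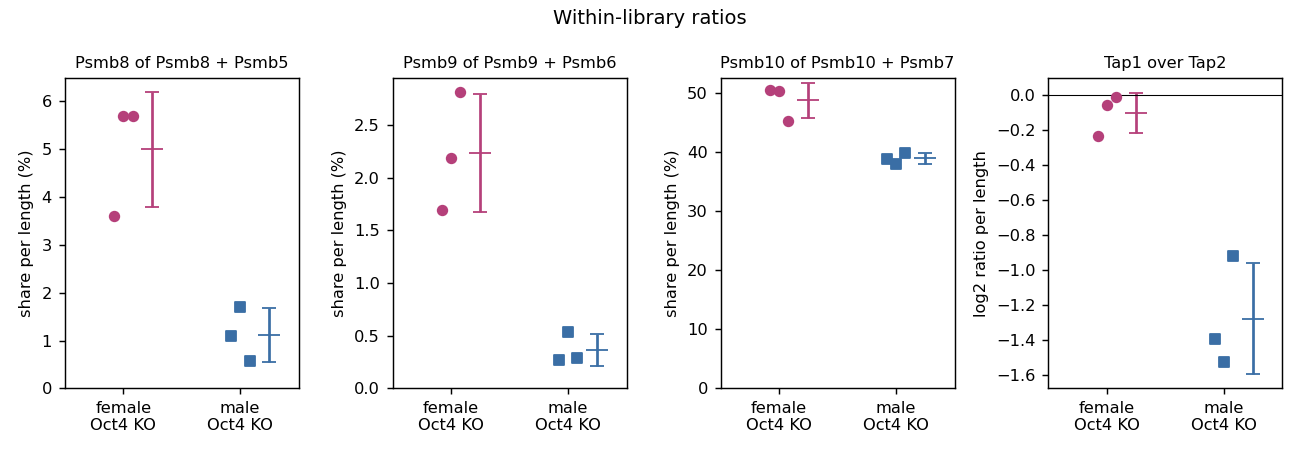
Per-library shares of each immunoproteasome gene within its pair (3 panels, %, axes from 0) and the log2 ratio of Tap1 to Tap2, per gene length, female Oct4 KO left of male Oct4 KO, with mean ± SD (n = 3 per sex). No panel shows an overlap between the sexes, and the Psmb8 and Psmb9 shares stay under 6%.

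Per length, in TPM (counts divided by gene length and scaled to a common total), B2m was the most abundant of the 10 genes in both sexes. In female cells it averaged 4658 ± 403 TPM, followed by H2-D1 at 410 ± 19.6, H2-K1 at 313 ± 20.3, Tapbp at 140.2 ± 8.58 and Psmb10 at 38.2 ± 2.08 TPM. Tap2 and Tap1 came next at 20.4 ± 1.36 and 19.1 ± 1.81 TPM, then Psmb8 at 10.9 ± 2.23, Nlrc5 at 9.40 ± 1.42 and Psmb9 at 2.73 ± 0.816 TPM. The means of Tap2 and Tap1, and those of Psmb8 and Nlrc5, differed by less than the larger SD of the pair. In male cells the order after B2m (1496 ± 69.0 TPM) was Tapbp at 79.4 ± 4.98, H2-K1 at 61.5 ± 1.43, H2-D1 at 48.3 ± 2.60, Psmb10 at 35.1 ± 2.38, Tap2 at 24.2 ± 1.95, Tap1 at 10.03 ± 1.57, Psmb8 at 3.68 ± 1.85, Psmb9 at 0.647 ± 0.255 and Nlrc5 at 0.0917 ± 0.0349 TPM. Thus H2-D1 stood above H2-K1 and Tapbp in female cells and below both in male cells. The log2 ratio of B2m to the summed heavy chains, per length, was 2.31 ± 0.10 in female and 2.38 ± 0.05 in male cells (SD, n = 3 each; two-sided exact permutation p = 0.4), a difference of -0.07 that became 0.06 without division by length.

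The 7 genes on chromosome 17 lie among many other genes, and their neighbours were more often lower than higher. Between Tapbp and H2-D1, a stretch of 1352 kb, 59 other genes were tested. Of these 33 were lower in female cells, and C2, Neu1 and Prrc2a were the 3 that were higher, with a median log2 fold change of -0.37. Genes called in either direction made up 61%, near the 60.7% of all genes. By direction, 29.8% of all genes were lower and 30.9% higher. Psmb9, Tap1, Psmb8 and Tap2 lie within 34.3 kb, where the only other genes were Gm20496, at 0 counts, and Gm15821, which missed the threshold with 0.660 ± 0.560 CPM in female and 0.377 ± 0.199 CPM in male cells. Pou5f1, the gene targeted in both groups, lies 239 kb beyond H2-D1. The sources used here do not give the strain of the chromosome around the targeted allele.

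**Figure D5:**
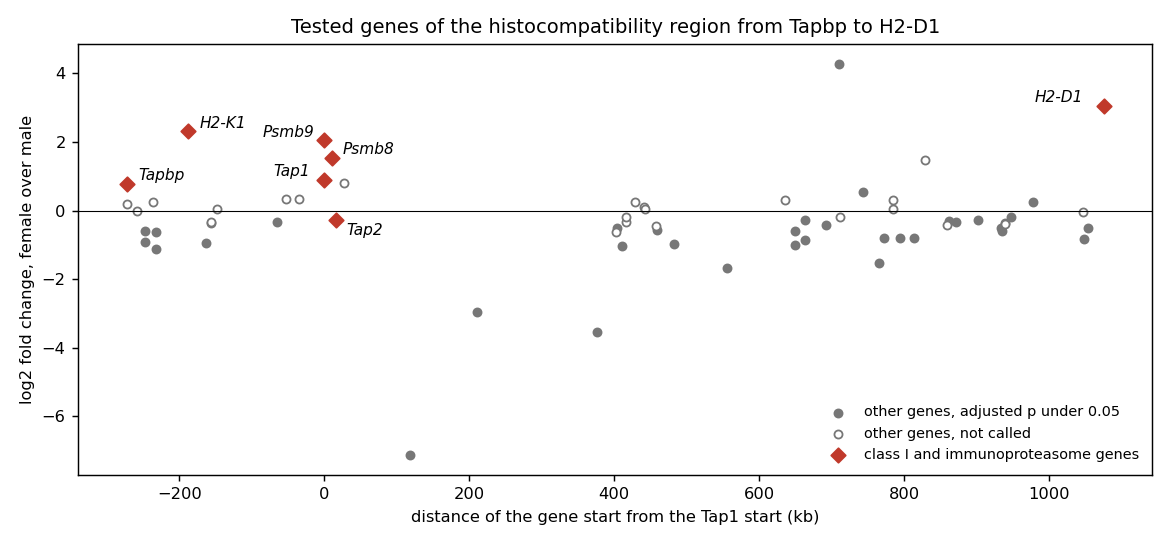
Log2 fold change, female over male, of every tested gene from Tapbp to H2-D1 by the distance of its start from the Tap1 start in kb. Diamonds are the 7 class I and immunoproteasome genes, of which 6 lie above 0 and Tap2 below. Filled grey points are other called genes (33 below 0 and 3 above) and open points genes not called.

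The genes nearest in profile were sought among 10398 protein-coding genes averaging 5 CPM or more, by the root mean square distance of centred log2(CPM + 0.5) over the 6 libraries, female and male together. H2-K1 was nearest to Trim30a (0.0816) and Casp1 (0.082), and H2-D1 to Agrn (0.0929) and Trp53i11 (0.0988). B2m was nearest to Scpep1 (0.0626) and AI464131 (0.0827), and Tapbp to Casp9 (0.0313) and Per1 (0.0471). Tap1 was nearest to Spata7 (0.0714) and Fjx1 (0.0747), and Tap2 to E2f4 (0.0299) and Ift46 (0.0329). For Nlrc5, near 0 in male libraries, the added 0.5 CPM sets the male value, so its nearest genes by this measure, Cspg4 (0.139) and Cnr1 (0.157), are not shown to have a like profile. Psmb8 was nearest to Galm (0.242) and Ube2l6 (0.25), Psmb9 to Uba7 (0.153) and Ly6e (0.161), and Psmb10 to Faf2 (0.0169) and Tox4 (0.0202). The added 0.5 CPM also shrinks the difference of Psmb9, at 0.576 to 1.16 CPM in male libraries. Its log2 fold change was 2.05, against 1.43 for Uba7 and 1.59 for Ly6e.

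Leukocytes are rich in class I and immunoproteasome RNA, and their markers were read beside these genes. Of 12 leukocyte and antigen-presenting cell markers, Ptprc, Adgre1, Cd3e, Fcgr1 and Cd86 were at 0 counts in all 6 libraries and 8 were under 1 CPM in all. The list summed to 14.1 to 17.9 CPM in female and 53.6 to 64.7 CPM in male libraries. Lyz2, a macrophage lysozyme gene, made up most of it, at 9.89 ± 1.13 CPM in female and 54.5 ± 6.03 CPM in male cells. Without Lyz2 the list summed to 5.31 to 7.58 CPM in female and 4.03 to 4.98 CPM in male libraries, so the order of the sexes rests on that gene. Cd68, a macrophage marker, was higher in female cells (5.78 ± 1.07 against 2.41 ± 0.986 CPM). The part of these markers, and of the fibroblast markers that were higher in female cells, was not tested.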

How the data were processed

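Bulk RNA-seq counts of 3 female and 3 male Oct4 KO libraries were used. Alignment used HISAT2 2.0.5 against mm10 and counting used featureCounts 1.5, per the submitters' processing notes; strand and multi-mapping settings are not given in the sources used here. The deposited values are raw counts per gene, not normalised by the authors; the deposited gene length column gave TPM. Columns were matched by the library names in the labels. The table held 0 other sample columns and 0 rows without a gene name.

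Differences were fitted over all genes with edgeR 4.0.16 (R 4.3.3; filterByExpr, TMM, glmQLFit, glmQLFTest, sex as the only term; two-sided, Benjamini-Hochberg over 14814 genes). Standard errors were back-calculated from each fold change and its F statistic. Libraries of a sex differed by 8.83 to 20.1 in chi-square per degree of freedom, so none was counted as a repeat. On simulated counts for 14553 genes, 90 of 95 genes changed by 1 on the log2 scale and 105 of 105 changed by 2 were recovered, with 7 false calls. The simulation gave every gene the same dispersion and changed far fewer genes than were called here. Its rates need not hold for these data. DESeq2 1.42.0, limma 3.58.1 voom and offsets for length and transcript GC (GENCODE M21; splines with 5 degrees of freedom) were alternatives. Shared windows are exact matches of the longest transcript in GENCODE M21. Intervals and floors (3 counts, 95%) cover counting error only.

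Members and lists were chosen with earlier results of these data known, and 1 listed gene is not reported here. Named beside the 10 genes are up to 4 per list by smallest adjusted p and the 2 nearest profiles per gene. Irf1, Irf7, Rfx5, H2-T22, H2-Q6, Ifngr1, Canx, Col1a1, Col1a2, C2, Neu1, Prrc2a, Ciita and the TGACG motif were chosen after their values were seen.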

Additional observations from a re-analysis of the deposited data

How the results depend on the processing

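Across 14 alternatives to the edgeR test, H2-D1, H2-K1, B2m, Tap1, Tapbp, Nlrc5, Psmb8 and Psmb9 stayed called higher, and 8 or 9 of the 10 genes were called. The log2 fold change ranged from 2.94 to 3.33 for H2-D1, 2.20 to 2.60 for H2-K1, 1.49 to 1.85 for B2m, 6.34 to 6.82 for Nlrc5, 1.18 to 1.95 for Psmb8 and 1.76 to 2.41 for Psmb9. Tap2 lost its call without female replicate 1 (adjusted p = 0.0927) or 2 (0.154), without male replicate 1 (0.0931) or 2 (0.148), with RLE factors (0.0539), DESeq2 (0.063), limma-voom (0.0505) or no filter (0.0676), and with the length and GC offsets (0.188). With total counts only, the median of all genes was -0.13 and Psmb10 was at -0.031. The ratio of B2m to heavy chains was 0.064 without division by length. Directions turned, with the cause not tested, for H2-T22 (-0.060 with upper quartile factors, -0.10 scaled by totals, and -0.10 to 0.088 leaving out 1 library, below 0 without female replicate 3 or male replicate 3), for Psme1 and Psme2 (-0.17 to 0.013 and -0.31 to 0.095 leaving out 1 library, above 0 without male replicate 2, and 0.26 and 0.30 with the offsets, where Psme1 was called), and, with the offsets, for Psme3 (0.073) and Creb1 (-0.067). Of 658 values for 47 of the other named genes, 632 kept direction and call.

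With the replicate number as a block, 8525 genes were called against 8993, and of the 10 genes Tap2 alone lost its call (adjusted p = 0.0856). Same-numbered libraries did not deviate together (r = -0.014, -0.0976 and -0.145), and libraries of different numbers ran from -0.0598 to 0.162. The labels do not say whether the numbers pair the samples, and these values do not settle it. The 4 ratios other than B2m to heavy chains kept their direction under each alternative. None of these 4 overlapped between the sexes, so leaving out a library could not turn them. Dropping the division by length keeps the order of the libraries for these 4 ratios, so it could not turn them either. For these alternatives the kept direction is therefore not evidence of robustness.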

Other observations

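Class II presentation genes were partly silent. Of 12 listed, 6 had 0 counts in all 6 libraries, among them H2-Aa and Cd74, and 4 could be tested. H2-DMb1 and H2-DMa, subunits of the peptide exchanger H2-DM, were read in both sexes and not called, with 15.03 ± 1.12 and 5.58 ± 0.587 CPM in female and 11.9 ± 1.97 and 4.42 ± 0.484 CPM in male cells. With the length and GC offsets both were called higher in female cells (log2 0.77 and 0.76, edgeR adjusted p = 0.000381 and 0.0052), and H2-DMb1 also without male replicate 3 (adjusted p = 0.0219). H2-Eb1, a class II beta chain gene, had 0 counts in the female libraries together and 54 in the male, at least 5.56-fold lower in female cells. Ifi30, a lysosomal thiol reductase gene, stood at 14.3 ± 3.58 CPM in female and 23.5 ± 0.184 CPM in male cells (log2 -0.72 ± 0.16), a call lost with the length and GC offsets (adjusted p = 0.169). Ciita, the class II counterpart of Nlrc5, had 28, 8 and 12 counts in female and 3, 2 and 10 counts in male libraries. These were too few to pass the filter with all 6 libraries. Without female replicate 2, or without any 1 male replicate, 5 class II genes passed. Of these, 2 were called higher without male replicate 3, 1 without female replicate 2 and 0 without male replicate 1 or 2, with 2 lower each time.

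Among the female libraries, replicate 3 was highest for 7 of the 10 genes and replicate 1 lowest for 7. Among the male libraries, replicate 2 was highest for 6 of the 10 and replicate 1 for 0.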
